A study of Mus musculus with 8 samples.

Results

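The miR-344 products of the mouse hippocampus were followed in small RNA libraries of BTBR and B6 mice. The members are the 4 rows, of 422 in the deposited table of miRNA counts, whose name begins with mmu-miR-344: mmu-miR-344d-3p, mmu-miR-344-3p, mmu-miR-344b-3p and mmu-miR-344d-3-5p. They were selected by name, but the cluster itself was chosen by a measured value, since miR-344d-3p had already been called lower in BTBR mice in these libraries. The strain differences of the members are therefore given below as a description with their errors and without a test. The libraries came from the hippocampus of 4 BTBR T+ Itpr3tf/J mice (BTBR), an inbred strain used as a model of autism, and 4 C57BL/6J mice (B6), the control strain, all adult males of 12 weeks. Each library was made from the tissue of 1 mouse. The strains differ across the whole genome, so no single locus separates the groups.

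A microRNA is cut from a hairpin precursor, which can release a product from each of its arms, named 5p and 3p. The product guides a silencing complex to messenger RNAs, largely through the bases near its 5′ end called the seed, so that products with different seeds are expected to bind different messages. In the mouse the miR-344 hairpins form a cluster on chromosome 7 near Magel2 and Ndn, imprinted neuronal genes of the region that corresponds to the human Prader-Willi locus.

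The mature sequences of the 4 members are shown because the products differ in their seeds, in the number of hairpins that encode them and in the length of sequence they share. All 4 were matched by name in RefSeq (GRCm38.p6), and they are written 5′ to 3′ with the seed, bases 2 to 8, in capitals.
mmu-miR-344d-3p: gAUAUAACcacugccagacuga
mmu-miR-344-3p: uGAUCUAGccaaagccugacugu
mmu-miR-344b-3p: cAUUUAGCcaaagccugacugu
mmu-miR-344d-3-5p: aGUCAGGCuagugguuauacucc

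The 3 products of the 3p arm carried 3 different seeds, although miR-344-3p and miR-344b-3p ended in the same 18 bases. That shared stretch, set in capitals in the next 2 lines, begins at base 6 of miR-344-3p and base 5 of miR-344b-3p, inside the seed of each, so that the products differ only at their 5′ ends.
mmu-miR-344-3p: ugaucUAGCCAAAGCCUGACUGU
mmu-miR-344b-3p: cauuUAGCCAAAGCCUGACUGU

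Aligned from the 3′ end without gaps, miR-344-3p and miR-344b-3p were identical at 20 of 22 bases. The corresponding number was 16 of 22 for miR-344-3p and miR-344d-3p, and 15 of 22 for miR-344b-3p and miR-344d-3p. The seed of miR-344-3p recurred in miR-344c-3p, which is not analysed here and differs from it by U9C and A21U (miR-344c-3p base, position from the 5′ end, miR-344-3p base). Reads of these near-identical products could be assigned to either, so the count of miR-344-3p is uncertain to that extent. In the study's own table of these libraries, the counts of miR-344-3p also include fractions of a read, while the deposited counts used here are whole. The seed of miR-344b-3p was found in no other product of the sequence table. The seed of miR-344d-3-5p was shared with 5 other 5p products of the cluster, none of which is analysed here.

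The cluster held 13 hairpins on the minus strand of chromosome 7 between positions 61683124 and 62085310 of GRCm38, a span of 402 kb. Of the 19 mature products named for these hairpins, 4 were in the table and 15 are not analysed here, so 6 hairpins had a measured product. In the direction of the strand, miR-344-3p comes first, from Mir344-2 (61940027 to 61940106) and Mir344 (61877770 to 61877864). Next lies Mir344b (61790519 to 61790581), the only source of miR-344b-3p. The last are Mir344d-3 (61726249 to 61726328), Mir344d-2 (61685272 to 61685351) and Mir344d-1 (61683124 to 61683192), which encode the same miR-344d-3p sequence, so its reads cannot be divided among them. miR-344d-3-5p comes from Mir344d-3 alone. In the GENCODE annotation, Mir344d-3, Mir344b and Mir344 lie in introns of the long noncoding RNA gene A230057D06Rik, which held 7 of the 13 hairpins and is on the same strand. Mir344-2 lies in an intron of the noncoding gene A330076H08Rik, also on the minus strand, while Mir344d-1 and Mir344d-2 lie outside annotated genes. Ndn starts at 62346569 on the opposite strand, 261 kb from Mir344i, the hairpin that comes first in the direction of the minus strand.

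**Figure D1:**
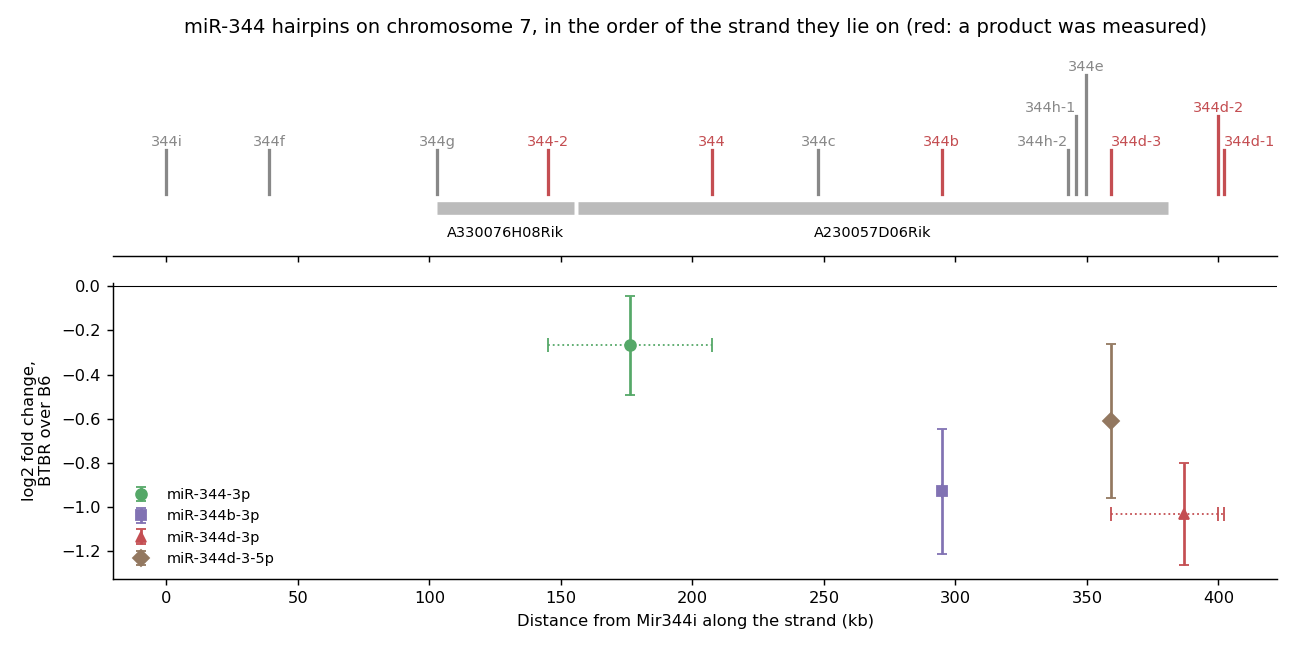
The upper panel maps the 13 miR-344 hairpins by distance in kb from Mir344i along the minus strand, with those that have a measured product in red and the 2 noncoding host genes in grey. The lower panel plots the log2 fold change (BTBR over B6, bar: standard error, n = 4 mice per strain) at the mean position of the hairpins of a product, which small ticks mark, and shows values of -0.27 for miR-344-3p, -0.93 for miR-344b-3p, -0.61 for miR-344d-3-5p and -1.03 for miR-344d-3p in that order along the strand, with no steady change with position.

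The libraries held between 2247482 and 7904990 counted reads, a 3.52-fold range, and every row had at least 1 read in each library. Levels are given as CPM, reads scaled to a common library total, after TMM normalization. TMM scales each library by 1 factor, on the assumption that most miRNAs do not differ between libraries. The 8 miRNAs listed for neurons had a summed level of 54261 to 83718 CPM in B6 and 64163 to 76527 CPM in BTBR libraries. The largest part was miR-9-5p, with a mean of 44004 CPM in B6 and 39458 CPM in BTBR, whereas miR-124-3p was at 1470 and 1538 CPM. B6 replicates 1 and 2 stood apart in the 12 miRNAs listed for choroid plexus, a tissue that borders the hippocampus, with sums of 40739 and 16687 CPM against 5282 to 9710 CPM in the other 6 libraries. Of those 12 miRNAs, 11 had a negative log2 fold change (median -0.98) and 0 were called in edgeR's quasi-likelihood test, while 4 had an unadjusted p under 0.05, and edgeR's exact test called 3, DESeq2 2 and limma-voom 0. Over all 422 miRNAs an unadjusted p under 0.05 was found for 46 (10.9%), edgeR's exact test called 16 (3.79%) and limma-voom 6 (1.42%), and DESeq2 called 21 of the 372 to which it gave an adjusted p (5.65%). All 6 miRNAs listed for red blood cells had a positive log2 fold change (median 1.19), with 1 called by the quasi-likelihood test, 5 at an unadjusted p under 0.05, 4 called by DESeq2, 2 by edgeR's exact test and 1 by limma-voom. Their sums were 565 to 1633 CPM in B6 and 953 to 2615 CPM in BTBR libraries. No measured marker was at 0 in any library, but neither was any other of the 422 miRNAs, so this tells nothing of the tissue. Of the 6 miRNAs listed for microglia and other immune cells, 5 were measured. The part of the differences in choroid plexus and red blood cell miRNAs in the values of the miR-344 products was not tested. The members' fold changes are given below also without B6 replicates 1 and 2.

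miR-344d-3p, the most abundant member, was at 524, 370, 497 and 645 CPM in B6 replicates 1 to 4. In BTBR replicates 1 to 4 it was at 259, 314, 195 and 226 CPM. Each BTBR mouse thus lay below each B6 mouse, with B6 replicate 2 the closest of its strain to the BTBR values and BTBR replicate 2 the highest of the other. The means were 509 ± 113 CPM (SD, n = 4) in B6 and 249 ± 50.7 CPM (SD, n = 4) in BTBR, a log2 fold change of -1.03 (standard error 0.23), which places BTBR at 48.8% of B6. Without B6 replicates 1 and 2 the log2 fold change was -1.20. The values rested on 699 to 2869 reads, and at 699 reads the counting error is 3.78%, below the SD between mice of a strain, which was 22.2% of the mean in B6 and 20.4% in BTBR.

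miR-344b-3p, from the single hairpin Mir344b, was at 122, 88.7, 106 and 120 CPM in B6 replicates 1 to 4. The BTBR replicates were at 58.8, 29.6, 75.1 and 64.7 CPM. Again the strains did not overlap, and BTBR replicate 2 lay well below the other BTBR mice, on 66 reads with a counting error of 12.3%. That library had the fewest reads (2247482) and stood apart in other miRNAs too, such as miR-148b-3p, at 2826 CPM against 239 to 900 CPM in the other libraries. The means were 109 ± 15.5 CPM (SD, n = 4) in B6 and 57.1 ± 19.5 CPM (SD, n = 4) in BTBR, a log2 fold change of -0.93 (standard error 0.28), or 52.5% of B6. It was -0.98 without B6 replicates 1 and 2, and -0.75 without BTBR replicate 2.

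miR-344-3p, which shares its last 18 bases with miR-344b-3p, had a different profile. It was at 190, 177, 164 and 152 CPM in B6 replicates 1 to 4, the narrowest spread of any member in a strain (9.57% of the mean). The BTBR replicates were at 95.0, 168, 153 and 152 CPM, so that 3 of the 4 lay within the range of the B6 mice and only BTBR replicate 1 lay clearly below it. The means were 171 ± 16.4 CPM (SD, n = 4) in B6 and 142 ± 32.2 CPM (SD, n = 4) in BTBR, and the log2 fold change was -0.27 (standard error 0.22). Without BTBR replicate 1 the log2 fold change was -0.12, without B6 replicates 1 and 2 it was -0.16, and with libraries scaled by their size alone it was -0.13.

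miR-344d-3-5p, the other arm of Mir344d-3, was the least abundant member. It was at 20.7, 17.2, 19.0 and 31.7 CPM in B6 replicates 1 to 4 and at 16.0, 22.4, 9.77 and 10.5 CPM in the BTBR replicates. Of the 4 BTBR mice, 3 lay below every B6 mouse, while BTBR replicate 2 lay among them. The means were 22.2 ± 6.51 CPM (SD, n = 4) in B6 and 14.7 ± 5.89 CPM (SD, n = 4) in BTBR, a log2 fold change of -0.61 (standard error 0.35). The value was -0.91 without BTBR replicate 2 and -0.80 without B6 replicates 1 and 2, but -0.43 without B6 replicate 4 and -0.46 without BTBR replicate 3. It rested on 39 to 141 reads, with a counting error of 16.0% at the lowest count.

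**Figure D2:**
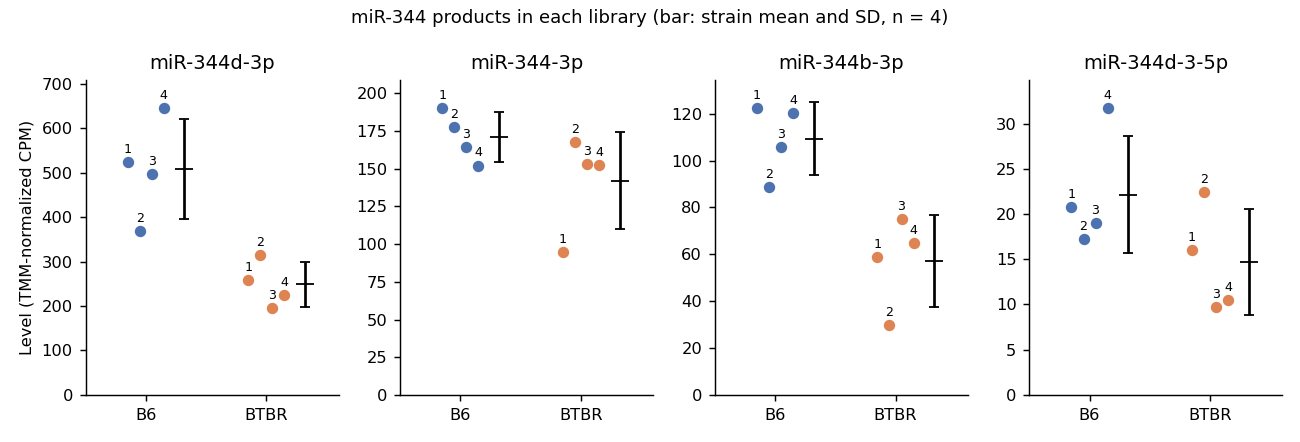
Each panel plots the level of 1 miR-344 product in CPM (y axis from 0, own scale per panel) in the 4 B6 and the 4 BTBR libraries, with the replicate number above each point and the strain mean and SD (n = 4) as a bar. The strains do not overlap for miR-344d-3p (195 to 314 CPM in BTBR, 370 to 645 CPM in B6) and miR-344b-3p, and they overlap for miR-344-3p and miR-344d-3-5p.

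The 4 products together made up 856, 653, 786 and 949 CPM in B6 replicates 1 to 4 and 429, 534, 433 and 453 CPM in the BTBR replicates. The sum in BTBR was 57.0% of that in B6 (811 ± 125 CPM and 462 ± 48.8 CPM, SD, n = 4), without overlap of the strains. miR-344d-3p took 62.2 ± 4.71% (SD, n = 4) of the reads of the 4 products in B6 and 53.5 ± 7.31% in BTBR. miR-344-3p took 21.6 ± 4.57% in B6 and 30.6 ± 5.88% in BTBR. For miR-344b-3p the shares were 13.5 ± 0.656% in B6 and 12.7 ± 5.04% in BTBR, closely held in the B6 mice and spread from 5.55% to 17.3% in the BTBR mice. In bulk tissue, fewer cells of a type and less of a product per cell cannot be told apart.

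At the study's threshold of 0.1 on the adjusted p, edgeR's quasi-likelihood test called 7 of the 422 miRNAs (1.66%), with 2 lower in BTBR (0.474%) and 5 higher. The split was 1 lower of 7 called with upper quartile normalization and 0 lower of 4 called with scaling by library size alone. 1 of the 4 members, miR-344d-3p, was called. It was not called when B6 replicate 4, or BTBR replicate 1, 3 or 4, was left out, nor with upper quartile normalization, scaling by library size alone, the replicate number as a block or a threshold of 0.05, whereas it was still called without B6 replicates 1 and 2. Each BTBR library was below each B6 library for 14 of the 422 miRNAs (3.32%), of which 2 were members. Since the cluster was taken up for the contrast that these counts describe, nothing is read from them. All 4 members had a negative log2 fold change, as did 207 of the 422 miRNAs, and the median was -0.77 for the members and 0.02 over all miRNAs. Ordered from the most negative fold change, miR-344d-3p ranked 11, miR-344b-3p 16, miR-344d-3-5p 32 and miR-344-3p 100 of the 422.

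**Figure D3:**
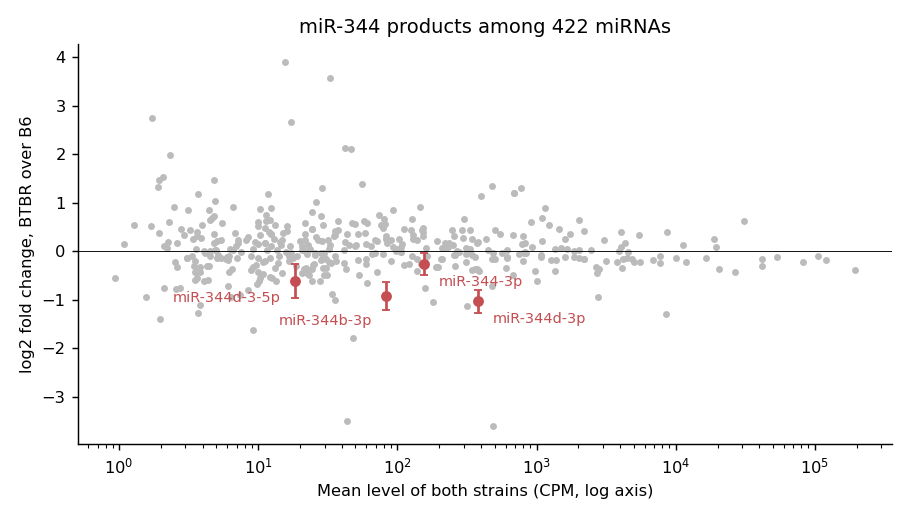
Each point is 1 of the 422 miRNAs, with its mean level in both strains in CPM on a log x axis and its log2 fold change (BTBR over B6) on the y axis, and the 4 miR-344 products are in red with their standard error. The products lie at -1.03, -0.93, -0.61 and -0.27, and other miRNAs reach larger differences in both directions.

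The members kept the same order of reads in every library of both strains. In 8 of 8 libraries miR-344d-3p was above miR-344-3p, miR-344-3p above miR-344b-3p, and miR-344b-3p above miR-344d-3-5p. The reads of miR-344d-3p exceeded those of miR-344-3p by a geometric mean of 2.27-fold (1.28-fold to 4.24-fold over the libraries). miR-344-3p exceeded miR-344b-3p by 2.01-fold (1.27-fold to 5.67-fold). miR-344b-3p exceeded miR-344d-3-5p by 4.43-fold (1.32-fold to 7.69-fold). The order was read from these same libraries and is given without a test. These are ratios of reads of products of 22 or 23 bases, and how well each sequence was captured in a library was not measured.

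Ratios between members of the same library are free of library size and normalization. miR-344d-3p had 2.76, 2.08, 3.03 and 4.24 reads per read of miR-344-3p in B6 replicates 1 to 4. The ratio was 2.73, 1.87, 1.28 and 1.48 in the BTBR replicates, of which 3 lay below every B6 mouse while BTBR replicate 1 lay among them. The difference of the mean log2 ratio, BTBR less B6, was -0.73 (standard error 0.32), and it was -1.02 without B6 replicates 1 and 2. Counting error does not reach from one end of a strain to the other, since the 95% Wilson interval was 1.94 to 2.24 for B6 replicate 2 and 3.90 to 4.61 for B6 replicate 4. The reads carry no molecular identifiers, so these intervals cover counting error only.

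miR-344b-3p had 0.643, 0.50, 0.644 and 0.790 reads per read of miR-344-3p in B6 replicates 1 to 4 and 0.619, 0.176, 0.491 and 0.425 in the BTBR replicates. The strains overlapped, and the difference of the mean log2 ratio of -0.71 (standard error 0.42) became -0.33 without BTBR replicate 2. Between miR-344b-3p and miR-344d-3p, the products with the lower level in every BTBR mouse, the ratio was 0.234, 0.240, 0.213 and 0.186 in B6 and 0.227, 0.0944, 0.385 and 0.287 in BTBR. Here the difference of the mean log2 ratio was 0.02 (standard error 0.44), so that no direction can be read, and it turned negative (-0.24) without BTBR replicate 3 and rose to 0.43 without BTBR replicate 2. The B6 mice stayed close to each other in this ratio, whereas BTBR replicates 2 and 3 lay at opposite ends of all 8 libraries.

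Both arms of Mir344d-3 were measured, although the 3p count also holds the reads of Mir344d-1 and Mir344d-2. miR-344d-3-5p made up 3.81%, 4.46%, 3.68% and 4.68% of the reads of both arms in B6 replicates 1 to 4. In the BTBR replicates it made up 5.83%, 6.68%, 4.76% and 4.43%. The values of BTBR replicates 1 to 3 lay above those of all B6 mice and that of BTBR replicate 4 lay among them. The 95% Wilson interval ran from 5.10% to 8.69% for BTBR replicate 2, the highest value, and from 3.01% to 4.48% for B6 replicate 3, the lowest. The difference of the mean log2 ratio of 5p to 3p reads was 0.40 (standard error 0.17), and 0.39 without B6 replicates 1 and 2. Over the 8 libraries, 14.0 to 26.2 reads of the 3p product were counted for each read of the 5p product.

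**Figure D4:**
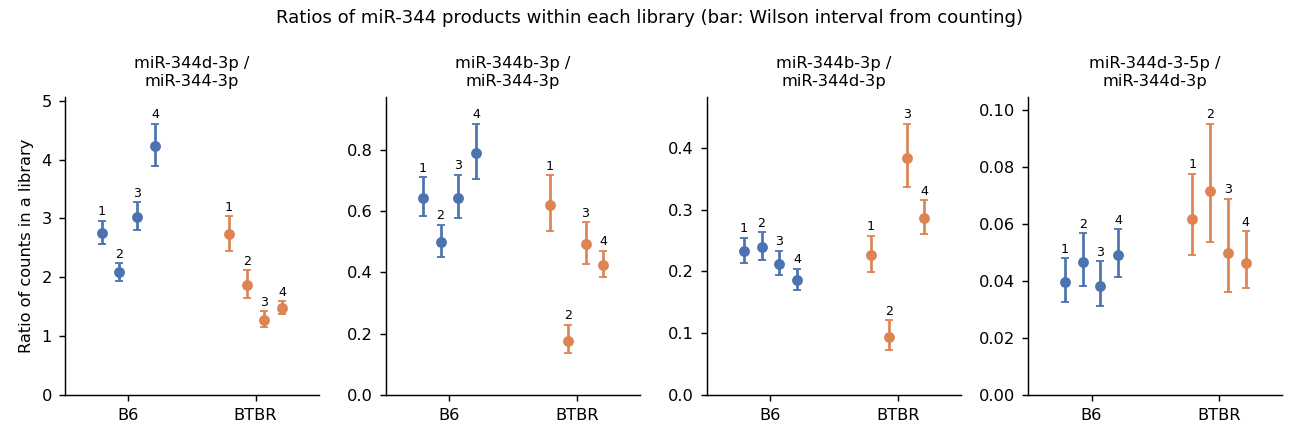
The 4 panels plot ratios of read counts within each library (y axis from 0, own scale per panel) for 2 paralogue pairs with miR-344-3p, for miR-344b-3p over miR-344d-3p and for the 5p over the 3p arm, with 95% Wilson intervals from counting and the replicate number above each bar. The strains overlap in all 4 ratios, and miR-344b-3p over miR-344d-3p runs from 0.0944 to 0.385 in BTBR mice, the largest SD of the log2 ratio (0.87), while on the linear axes miR-344d-3p over miR-344-3p has the largest SD (0.90 in B6).

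Whether the 4 libraries of a strain differed in these ratios by more than counting error was tested by chi-square on the read counts, adjusted by Benjamini-Hochberg over 8 tests. With 1 library per mouse, the test sets the libraries against counting error alone, so a difference between mice and one from library preparation cannot be told apart. The variation beyond counting error that edgeR fitted over all miRNAs was 0.371 (SD over mean). The counting error of the 3p products was at most 12.3%, so variation in their ratios was likely before the test. Other pairs of miRNAs were not tested, so the results show nothing particular to the miR-344 products. The ratio of miR-344d-3p to miR-344-3p varied beyond counting error among the B6 libraries (chi-square 162, 3 degrees of freedom, adjusted p = 6.32e-34) and among the BTBR libraries (122, adjusted p = 1.19e-25). So did miR-344b-3p to miR-344-3p in B6 (34.7, adjusted p = 2.25e-07) and BTBR (73.9, adjusted p = 1.23e-15), and miR-344b-3p to miR-344d-3p in B6 (17.7, adjusted p = 0.000691) and BTBR (110, adjusted p = 3.2e-23). For the arms of miR-344d no variation beyond counting error was detectable at this depth, in B6 (4.96, adjusted p = 0.175) or in BTBR (7.03, adjusted p = 0.081), where the 5p product gave at most 141 reads in a library. Reads copied in amplification are not separate molecules, so these p-values can be too small.

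The deviation of each member from its strain mean on the log2 scale, which removes the strain difference, shows which products moved together from mouse to mouse. Over the 8 libraries, the deviations of miR-344d-3-5p and miR-344d-3p had a Pearson r of 0.91 (Spearman's rho 0.90), and r was 0.97 without B6 replicate 2 and BTBR replicate 3, the libraries whose miR-344d-3p deviation lay farthest from the median deviation. B6 replicate 4 and BTBR replicate 2 were the highest of their strain in both arms. BTBR replicate 2 was the highest of its strain in miR-344-3p as well, whereas B6 replicate 4 was the lowest of its strain there. r was -0.16 between miR-344-3p and miR-344d-3p, -0.35 between miR-344b-3p and miR-344d-3p and -0.29 between miR-344-3p and miR-344b-3p (rho -0.14, -0.24 and 0.05). Without the same 2 libraries these r values were 0.05, -0.58 and -0.43, so that the sign for miR-344-3p and miR-344d-3p rests on those libraries. These correlations are a description, as the members share a library, its depth and its normalization, and as 8 libraries of 2 strains are few.

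**Figure D5:**
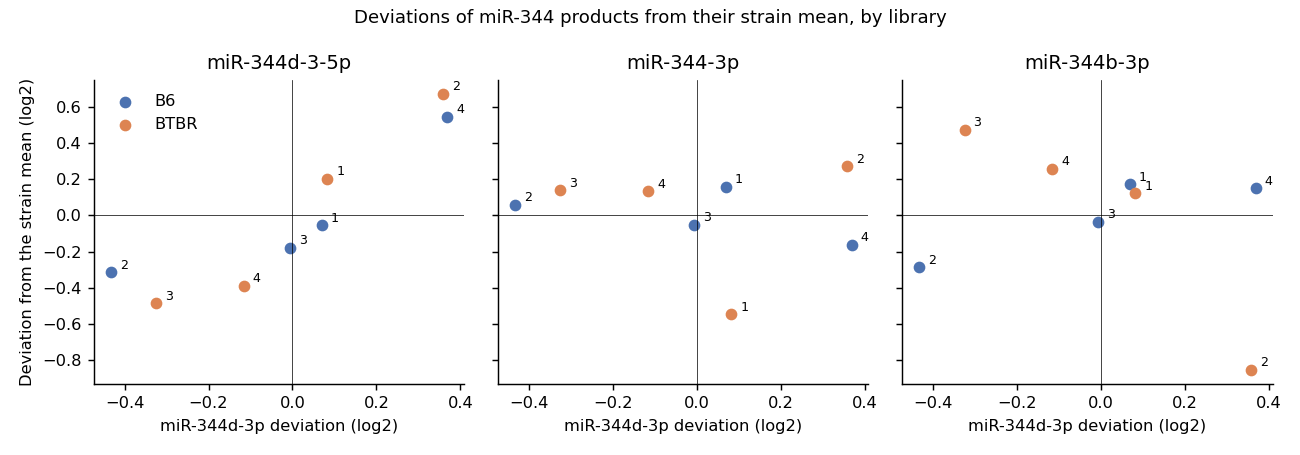
Each panel plots the deviation of 1 miR-344 product from its strain mean (y axis, log2) against that of miR-344d-3p (x axis, log2) in the 8 libraries, coloured by strain and numbered by replicate. The 5p arm, miR-344d-3-5p, rises with miR-344d-3p (r = 0.91), whereas miR-344-3p (r = -0.16) and miR-344b-3p (r = -0.35) do not.

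Among the 317 other miRNAs with a mean of at least 10 CPM, the level of miR-344d-3p over the 8 libraries, strain difference included, was most like those of miR-1981-5p (Pearson r = 0.93, Spearman's rho 0.90), miR-320-3p (r = 0.87), let-7k (r = 0.85), miR-187-3p (r = 0.84) and miR-92b-5p (r = 0.82), when members are left out. miR-344d-3-5p ranked 3 in the same order (r = 0.87), miR-344b-3p 38 and miR-344-3p 65. Without B6 replicate 4 and BTBR replicate 3, the libraries farthest from the median, r lay between 0.69 and 0.87 for those 5 miRNAs and fell to 0.69 for miR-344d-3-5p. In the deviations from the strain means, the most alike were miR-676-3p (r = 0.95), miR-7b-5p (r = 0.94), miR-7a-5p (r = 0.90), miR-195b (r = 0.89) and let-7b-5p (r = 0.89), from other loci. There miR-344d-3-5p again ranked 3, while miR-344-3p ranked 176 and miR-344b-3p 216 of 317. Without B6 replicate 2 and BTBR replicate 3, which lay farthest in these deviations, r lay between 0.63 and 0.88 for those 5 miRNAs and was 0.97 for miR-344d-3-5p.

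The seed of miR-344d-3p was shared with miR-344e-3p, which is not analysed here, and with miR-410-3p of the Dlk1-Dio3 locus, an imprinted region on chromosome 12 that holds a large miRNA cluster. The sequence of miR-410-3p (RefSeq, GRCm38.p6, chr12:109743764-109743784, plus strand) is shown with the common seed in capitals, since both products were measured.
mmu-miR-410-3p: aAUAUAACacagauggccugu

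miR-410-3p was at 1472, 1863, 1187 and 1346 CPM in B6 replicates 1 to 4 and at 1653, 1244, 2201 and 1924 CPM in the BTBR replicates. The strains overlapped, and the log2 fold change was 0.26 (standard error 0.22). The 2 measured products with this seed together summed to 1976 ± 225 CPM (SD, n = 4) in B6 and 2004 ± 358 CPM (SD, n = 4) in BTBR, a difference smaller than the SD of either strain. miR-344d-3p made up 25.7% of that sum in B6 and 12.4% in BTBR.

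Imprinted miRNA clusters at other loci were described in the same way for comparison, while imprinting of the miR-344 hairpins themselves was not tested. In those clusters 0 miRNAs were called in either direction by edgeR's quasi-likelihood test, edgeR's exact test or limma-voom. An unadjusted p under 0.05 was found for 4 miRNAs of the Dlk1-Dio3 locus, of which DESeq2 called 1, for 2 of the Mest and Nespas loci and for 0 of the Sfmbt2 intron, where DESeq2 called 0. Against the 10.9% over all miRNAs, 4 of 65 in the Dlk1-Dio3 locus is a smaller share, 2 of 5 in the Mest and Nespas loci a larger one, and 0 of 8 in the Sfmbt2 intron a smaller one. In the Dlk1-Dio3 locus 18 of the 65 measured miRNAs had a negative log2 fold change, with a median of 0.16, and the sums were 44352 to 56836 CPM in B6 and 52817 to 58705 CPM in BTBR. In the intron of Sfmbt2 it was 6 of 8, with a median of -0.13. Among these, miR-669a-5p and miR-669p-5p, both negative, had the same counts in every library and are not separate measurements. For the Mest and Nespas loci, pooled in 1 list, a negative value was found for 3 of 5 (median -0.40), but the 2 loci went opposite ways. The Mest products miR-335-3p and miR-335-5p had values of 0.92 and 0.54. The Nespas products miR-296-3p, miR-296-5p and miR-298-5p had -0.40, -0.49 and -1.28, the last at a mean of 5.33 CPM in B6 and 2.12 CPM in BTBR. The unadjusted p was under 0.05 for miR-335-3p and miR-298-5p. The miR-344 products were negative in 4 of 4 (median -0.77), and those of Nespas were all negative too. Of cell type lists, miRNAs of oligodendrocytes had a negative value in 2 of 3 (median -0.34), those of neurons in 2 of 8 (median 0.23), and those of microglia and other immune cells in 0 of the 5 measured (median 0.15), and none of these had an unadjusted p under 0.05 or was called by DESeq2, edgeR's exact test or limma-voom.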

How the data were processed

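Small RNA libraries (TruSeq Small RNA kit) of 8 mice were analysed, 4 per strain. Calls of edgeR's test rest on the spread between these mice, and chi-square p-values on counting error. The authors checked reads with FastQC 0.11.2, removed adapters, mapped reads with sRNAbench and Bowtie to GRCm38, and assigned those within miRBase coordinates. The deposited values are whole-number counts for 422 miRNAs, without normalization or molecular identifiers. Members and lists were chosen with earlier results of these data known. Here, counts were normalized by TMM and strains were compared over all miRNAs, without covariates or a filter, by edgeR's quasi-likelihood test (edgeR 4.0.16, R 4.3.3), with Benjamini-Hochberg adjustment and a threshold of 0.1. The steps were tested on simulated data. Ratios used counts + 0.5 on the log2 scale, and likeness used log2(CPM + 0.5) over miRNAs with a mean of at least 10 CPM. The miRNAs named are the members, the 5 most like miR-344d-3p by each measure, and miR-410-3p. That product, and single miRNAs named from lists or as examples for a library, were named after their values were seen. Chi-square tests and plots used scipy 1.17.1 and matplotlib 3.10.9 in Python 3.11.15. Genes came from GENCODE and sequences from RefSeq, both GRCm38. Alternatives were other normalizations and tests (limma-voom, limma 3.58.1; DESeq2 1.42.0), filters, identical rows kept once, robust dispersions, a threshold of 0.05, the replicate number as a block, and each library left out.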

Additional observations from a re-analysis of the deposited data

How the results depend on the processing

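The log2 fold changes of the 4 members kept their sign under 20 alternatives each, between -1.20 and -0.87 for miR-344d-3p, -1.09 and -0.75 for miR-344b-3p, -0.91 and -0.43 for miR-344d-3-5p, and -0.38 and -0.12 for miR-344-3p. The number of members past the threshold was 1, became 0 with upper quartile normalization, library size only, the replicate block or a threshold of 0.05, became 2 with DESeq2's Wald test, and ran from 0 to 1 when each library was left out. miR-344d-3p was called under 13 of 21 alternatives, miR-344b-3p under 1 and the others under 0. Of all miRNAs, 7 were called, against 4 with library size only or a threshold of 0.05, 3 with the replicate block, 16 with edgeR's exact test and 21 with DESeq2, and 3 to 13 when each library was left out. Without B6 replicates 1 and 2, an alternative chosen after seeing the data, 15 were called. Library size only moved the median log2 fold change of all miRNAs from 0.02 to 0.15. The cause of these changes was not tested. The difference of the log2 ratio of miR-344b-3p to miR-344d-3p (0.02) turned to -0.05 without B6 replicate 4, -0.24 without BTBR replicate 3 and -0.10 without BTBR replicate 4, in a range of -0.24 to 0.43 when each library was left out. The other ratio differences kept their sign, at -1.02 to -0.56 (miR-344d-3p to miR-344-3p), -0.93 to -0.33 (miR-344b-3p to miR-344-3p) and 0.28 to 0.49 (5p to 3p arm). By Spearman's correlation, 3 of the 5 miRNAs most like miR-344d-3p were shared. Replicate numbers do not pair mice in the labels, and the deviations of same-numbered libraries correlated at 0.052, -0.069, -0.151 and -0.146. Depth limited miR-344d-3-5p most, with 39 reads at the lowest.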
